A study of Homo sapiens with 4 samples.

Results

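Tight junction and cell polarity genes were followed in BEAS-2B, an immortalised human bronchial epithelial cell line. Members were the rows of the count table whose symbol is on a list of 44 names, and 42 were found among 39634 genes with values. The other 2 names, INADL and MPP5, are older symbols of the members PATJ and PALS1. The 42 genes were 17 claudins, 7 other transmembrane proteins, 7 cytoplasmic scaffolds and 11 polarity proteins. The series compared cells carrying a short hairpin RNA (shRNA) against Fer, a cytoplasmic tyrosine kinase, with cells carrying a control shRNA. All cells were the same line grown in N2B27 medium, with 2 libraries of polyadenylated RNA in each group. The labels name neither the hairpin sequence nor the number of clones, and they do not say whether the replicates were separate cultures. The p-values therefore speak only of library-to-library spread, part or all of which may be technical.

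Library totals were 21422976 and 25169713 counts in the knockdown-labelled libraries, and 21772587 and 22857051 counts in the control libraries. Expression is given as CPM, read counts scaled to a common library size, with library sizes adjusted by the TMM method. FER had 17.8 and 20.1 CPM in the knockdown-labelled libraries, against 16.3 and 21.2 CPM in control, so its mRNA did not separate the groups (log2 fold change 0.02 ± 0.17 SE, adjusted p = 0.976 in edgeR's quasi-likelihood test). A lower FER mRNA was thus not seen where the label calls for one, and directions below are those of the libraries as labelled. Replicate 1 of that group was matched through a shortened column name, as its only library with that number. Genes of the mitochondrial chromosome made up 9.62% and 9.37% of counts in the knockdown-labelled libraries, against 16.9% and 19.4% in control. Their part in the results below was not tested beyond a fit without those genes. In that fit 0 members passed, where 76 of 15271 tested genes did. The fit with those genes also had 0 members past the test, so this count cannot show their part.

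Tight junctions seal the space between neighbouring epithelial cells. Claudins form the strands and set which ions pass, occludin and tricellulin (MARVELD2) join them, and proteins of the JAM type bridge the membranes. PDZ and adaptor scaffolds such as ZO-1 (TJP1) tie the strands to actin, while the Crumbs, PAR and Scribble complexes mark the apical and basolateral sides of the cell. In airway epithelium this belt separates inhaled material from the tissue beneath.

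The epithelial identity of the line was checked on markers, and it was mixed. KRT8 and KRT18, keratins of simple epithelia, averaged 1837 and 774 CPM in the knockdown-labelled libraries, against 1848 and 878 CPM in control. The basal cell genes KRT5, KRT14 and TP63 and the epithelial regulators ESRP1, RAB25 and GRHL2 were too low to test, GRHL2 had 1 and 0 counts in the knockdown-labelled libraries and 0 and 1 in control, and the lung factor NKX2-1 had 0 counts in all 4. The mesenchymal intermediate filament gene VIM averaged 900 CPM in knockdown-labelled libraries, against 1355 CPM in control (adjusted p = 0.0549). Other annotated genes share 24.4% of its exonic bases. Of 11 tested mesenchymal markers, 1 passed the test, THY1 (log2 fold change -0.77, adjusted p = 0.0302), beside 0.646% of all tested genes, 0.365% lower. Their log2 fold changes were above 0 for 1 and below 0 for 10, while 51.9% of all tested genes were above 0. The summed level of the 11 was 3400 and 3269 CPM in the knockdown-labelled libraries, against 4176 and 4919 CPM in control, with FN1 and VIM as its largest parts. The part of these genes in the results below was not tested. Of 8 tested airway epithelial markers 0 passed, and 5 had log2 fold changes above 0. Both knockdown-labelled libraries lay above both controls for 4 of the 8 (50%), against 25.8% of all tested genes. These 4 included the adhesion genes CDH1 (log2 fold change 0.45, adjusted p = 0.239) and EPCAM (0.46, adjusted p = 0.426). The rest of the 4 were the transcription factors ELF3 (0.57, adjusted p = 0.242) and OVOL1 (0.42, adjusted p = 0.654). Other annotated genes share 18.5% of the exonic bases of ELF3 and 27.1% of those of OVOL1, which had 15 to 31 counts in a library. The keratin KRT7 lay the other way (-0.40, adjusted p = 0.169), below both controls as 1 of the 8 (12.5%), against 23.4% of all tested genes. The summed level of the 8, of which KRT8 and KRT18 were the largest parts, was 2869 and 2835 CPM in the knockdown-labelled libraries, against 3391 and 2663 CPM in control. The 6 markers of differentiated airway cells, of which 4 were tested, had 0 past the test, as did the endothelial list (2 tested) and the leukocyte list (1 tested), and SCGB3A1 and CD3E were at 0. In bulk samples fewer cells of a type and less RNA per cell cannot be told apart.

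ZEB1, SNAI1 and SNAI2, mesenchymal transcription factors that bind E-boxes and repress epithelial junction genes, were present at 10.7 and 12.6, 4.45 and 4.97, and 7.44 and 10.1 CPM in the knockdown-labelled libraries. They stood at 11.9 and 18.1, 7.14 and 6.87, and 9.29 and 13.7 CPM in control (adjusted p = 0.414, 0.194 and 0.421). For that reason the promoters of members were read for the E-box letters CAGGTG and CACCTG, each the reverse complement of the other, so that both strands were covered. RefSeq gave windows of 250 bases before the start, in build GRCh38.p14, for 29 of the 42 members, with 46 windows in all because some genes have several starts. Of these, 10 windows (21.7%) held an E-box, against 17.5% of 35116 windows of all genes. CRB3 held the most, 5 in its window, and CLDN7 held 4 in 1 of its 2 windows. These are shown, with E-boxes in capitals, beside the window of TJP3 that has a match, since TJP3 had the smallest p among the scaffolds. The other TJP3 window held 0 E-boxes. CGNL1 and CLDN3, whose log2 fold changes were also above 0, had 1 window each with 0 E-boxes. F11R and SCRIB had no window. A relation of E-boxes to fold changes was not tested. The CRB3 window lies on the plus strand at chr19:6464021-6464270, the CLDN7 window on the minus strand at chr17:7262479-7262728 and the TJP3 window on the plus strand at chr19:3721487-3721736.
CRB3: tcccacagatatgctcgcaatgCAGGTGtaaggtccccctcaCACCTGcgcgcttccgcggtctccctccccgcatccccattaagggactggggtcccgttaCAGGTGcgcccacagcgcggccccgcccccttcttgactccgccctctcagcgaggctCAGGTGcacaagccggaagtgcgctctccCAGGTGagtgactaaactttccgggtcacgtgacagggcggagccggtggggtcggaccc
CLDN7: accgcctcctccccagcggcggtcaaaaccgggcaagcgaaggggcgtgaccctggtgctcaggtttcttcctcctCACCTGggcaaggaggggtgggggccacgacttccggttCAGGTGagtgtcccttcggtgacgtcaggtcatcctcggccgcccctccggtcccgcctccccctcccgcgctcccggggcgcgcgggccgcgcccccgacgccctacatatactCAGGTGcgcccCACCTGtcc
TJP3: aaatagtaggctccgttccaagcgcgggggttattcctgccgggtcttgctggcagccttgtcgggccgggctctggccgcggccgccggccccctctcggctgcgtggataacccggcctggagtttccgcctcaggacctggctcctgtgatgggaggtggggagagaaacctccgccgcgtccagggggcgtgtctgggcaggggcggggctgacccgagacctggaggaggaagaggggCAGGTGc
The letters AACCGGTT, a site of GRHL factors, were in 0 of the 46 windows and in 0.117% of all windows. At so low a share, 0 in 46 windows tells nothing about the members. A match in letters is a description and no evidence of binding.

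Levels of different genes were compared per length, as TPM, a count divided by gene length and scaled to a fixed total per library, from the lengths in the deposited table. TPM is not compared between the groups, because mitochondrial genes took 30.7% and 30.0% of it in the knockdown-labelled libraries and 45.6% and 51.3% in control. SCRIB, the basolateral polarity scaffold, was the highest member, at a mean of 260 TPM over the 4 libraries. CLDN11, a claudin best known from myelin and Sertoli cells, was second at 81.8 TPM, and LLGL1, a partner of SCRIB, came next at 62.2 TPM. CLDN1, a barrier-forming claudin of many epithelia, followed at 57.1 TPM. SCRIB was above CLDN11 and CLDN11 above LLGL1 in all 4 libraries, while LLGL1 was above CLDN1 in 3 of 4. PARD6A (39.7 TPM) and F11R (38.0 TPM) changed order with the group. F11R was above in both knockdown-labelled libraries, narrowly in replicate 2 (49.8 against 49.3 TPM), and PARD6A was above in both controls. Both lay above TJP1, the highest scaffold, at 16.4 TPM. Claudins ranged widely, since after CLDN11 and CLDN1 came CLDN15 at 13.1 TPM, CLDN3 at 11.6 TPM, CLDN9 at 9.01 TPM, CLDN12 at 6.02 TPM, CLDN4 at 4.09 TPM and CLDN7 at 2.46 TPM, and the other 9 were under 1 TPM. The order of CLDN15 and CLDN3 depended on the group, with CLDN3 above in both knockdown-labelled libraries and CLDN15 above in both controls. JAM3, an adhesion protein of the JAM type, had 0 and 0 counts in the knockdown-labelled libraries and 0 and 1 in control. CLDN8 had 0 counts in all 4 libraries, which allows up to 3 counts in each, or 0.119 to 0.140 CPM on unscaled library totals, as counting error only.

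**Figure D1:**
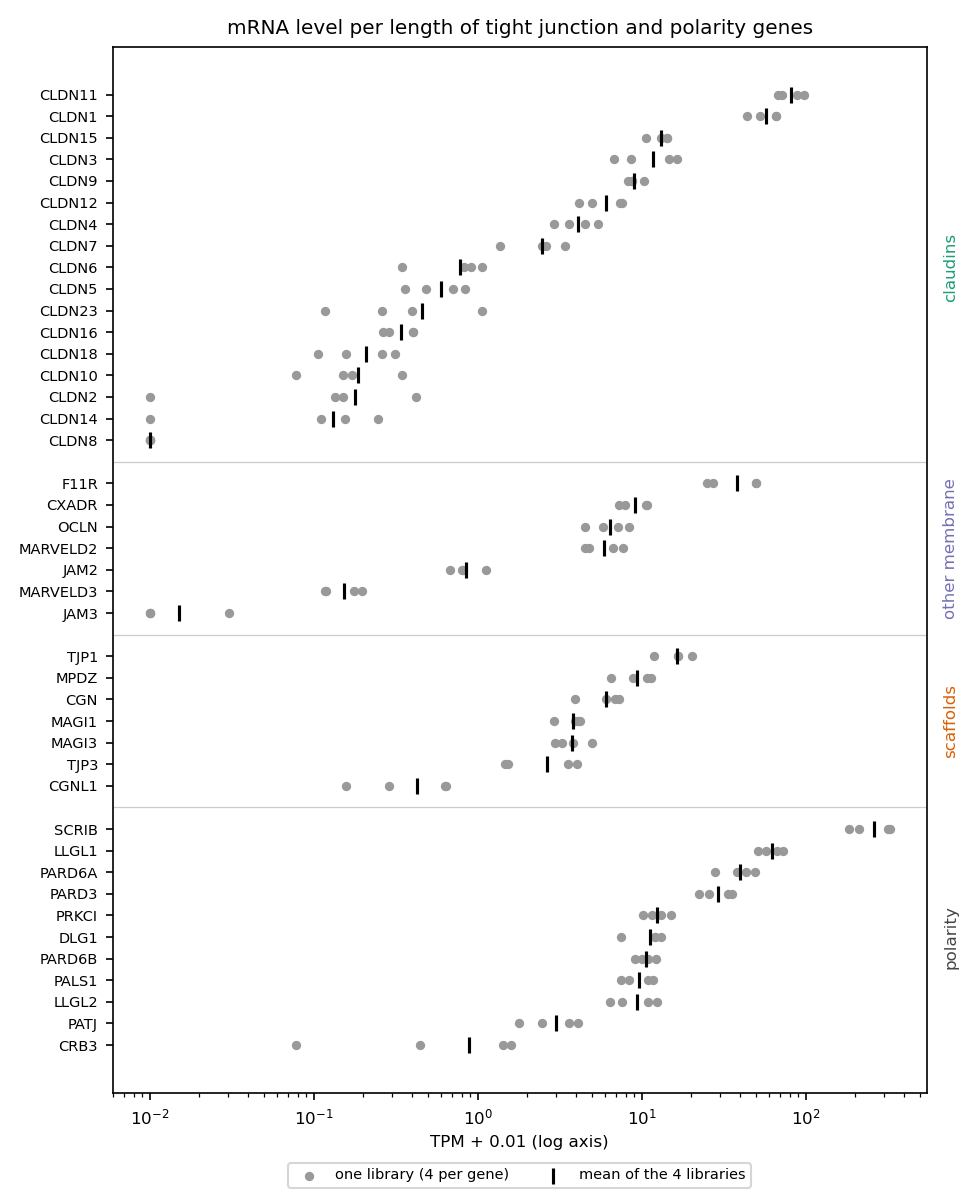
TPM plus 0.01 on a log axis for the 42 genes, grouped by role. Grey points are the 4 libraries, not split by group, and black ticks are their mean. SCRIB stands highest at 260 TPM, CLDN11 and CLDN1 lead the claudins, and CLDN8 has no counts.

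The comparison asked which of these genes differed between the knockdown-labelled libraries and control. Of 33 members with enough counts to test, 0 passed an adjusted p of 0.05 over all genes in edgeR's quasi-likelihood test, where 0.646% of all 15336 tested genes passed, 0.28% higher and 0.365% lower. DESeq2 called 1 member, F11R, where it called 580 of the 15336 genes given to it. Not all of these received an adjusted p. CRB3, CGNL1 and JAM2 had none, so DESeq2 made no call on them. With limma-voom 0 members and 178 of all tested genes were called. At an unadjusted p under 0.05, 6 members were higher and 1 was lower (18.2% and 3.03%), against 8.95% and 8.77% of all tested genes. Both knockdown-labelled libraries lay above both control libraries for 12 members (36.4%) and below both for 2 (6.06%), against 25.8% and 23.4% of all tested genes. Log2 fold changes were above 0 for 23 members (69.7%), against 51.9% of all tested genes. The median log2 fold change of the tested members was 0.09, beside 0.01 over all tested genes. By role the medians were 0.20 for 10 claudins, 0.15 for 5 other transmembrane proteins, 0.07 for 7 scaffolds and 0.09 for 11 polarity proteins. These were not stable. With 1 library left out the median of all members was 0.00071 to 0.15, that of claudins 0.013 to 0.13, that of other transmembrane proteins -0.012 to 0.24, that of scaffolds -0.11 to 0.33 and that of polarity proteins 0.016 to 0.15. A filter of 5 CPM in 2 libraries put the claudin median at -0.011. Of the 33, CRB3 and CLDN6 passed the filter on low counts only through the knockdown-labelled libraries. Their fold changes, and the counts and medians above that include them, are therefore partly set by the filter. CRB3 is among the 6 higher members and the 12 above both controls, and both genes are among the 23 above 0. The other 9 genes, with 0 to 16 counts in a library, were not tested.

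**Figure D2:**
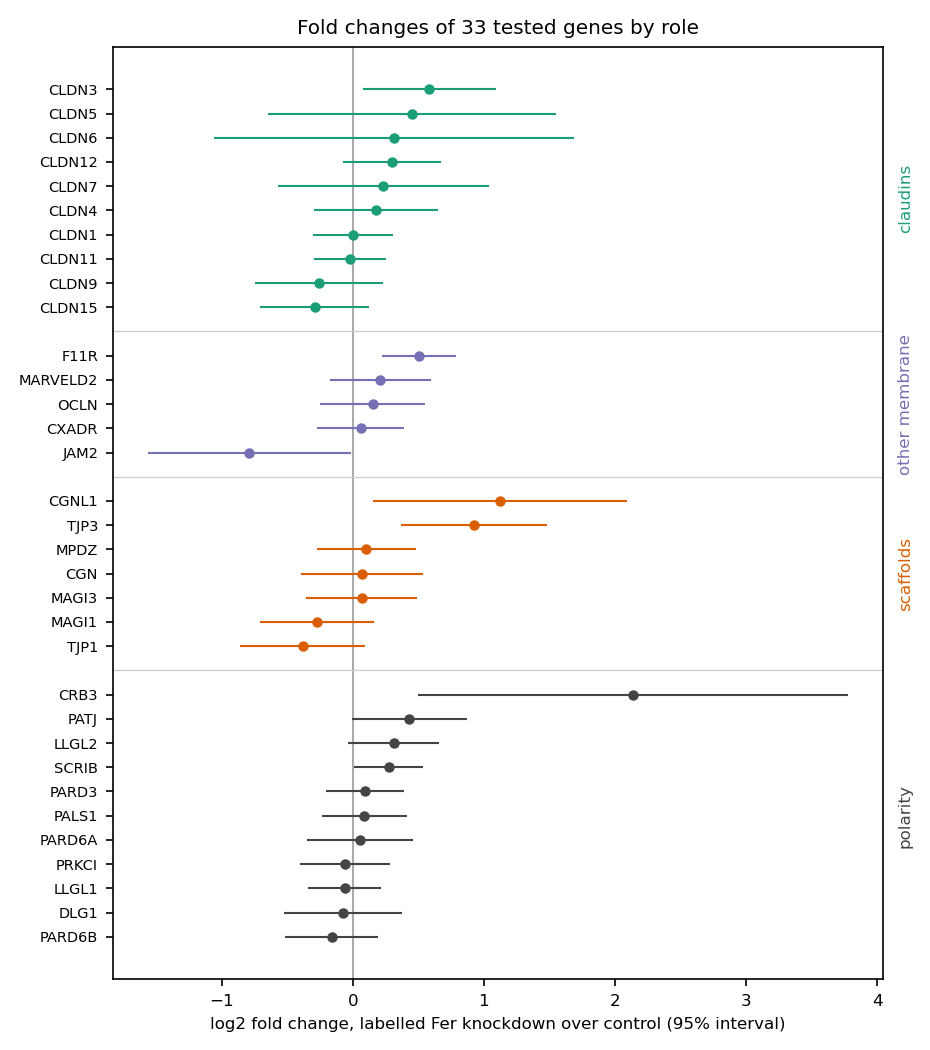
Log2 fold changes of the knockdown-labelled libraries over control for the 33 tested genes, by role, with 95% intervals from edgeR (n = 2 per group). CRB3, CGNL1, TJP3, CLDN3, F11R and SCRIB lie above 0 with their intervals and JAM2 lies below, but 0 passed the adjusted threshold of 0.05. CRB3 passed the filter on low counts only through the knockdown-labelled libraries, so its place is partly set by the filter.

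Among the claudins, CLDN3, a barrier-forming claudin of tight epithelia, had the smallest p. CLDN3 had 6.52 and 5.91 CPM in the knockdown-labelled libraries, against 4.65 and 3.64 CPM in control. The groups did not overlap, with a log2 fold change of 0.58 ± 0.23 (SE, 95% interval 0.07 to 1.09, adjusted p = 0.223). CLDN12, a claudin linked to calcium passage, had 15.5 and 16.1 CPM in the knockdown-labelled libraries and 11.6 and 14.0 CPM in control (0.30 ± 0.17, adjusted p = 0.391), without overlap, and 16.3% of its exonic bases lie in another gene too. CLDN15, which forms sodium-conducting pores in the gut, had 11.8 and 13.1 CPM in knockdown-labelled libraries, against 17.4 and 13.1 CPM in control, where replicate 1 stood above the other 3 libraries (-0.29 ± 0.19, adjusted p = 0.459). Its log2 fold change became -0.08 with control replicate 1 left out and -0.51 with replicate 2 left out. The most abundant claudins had group means close together. CLDN11 had 120 and 133 CPM in the knockdown-labelled libraries, against 131 and 125 CPM in control. Its log2 fold change was -0.02 with a 95% interval of -0.29 to 0.26, and 18.3% of its exonic bases overlap another annotated gene. CLDN1 had 74.2 and 74.9 CPM in knockdown-labelled libraries, against 67.5 and 81.2 CPM in control, so that the control libraries lay on either side (95% interval -0.30 to 0.31). CLDN4, an anion-selective or barrier claudin, had 6.61 and 7.94 CPM in knockdown-labelled libraries, against 7.14 and 5.76 CPM in control, with overlapping groups. CLDN7, found along basolateral membranes, had 2.03 and 2.67 CPM in knockdown-labelled libraries, against 2.59 and 1.43 CPM in control, also overlapping, and its promoter window with 4 E-boxes is shown above. CLDN9, at 5.11 and 4.37 CPM in knockdown-labelled libraries, against 5.82 and 5.49 CPM in control, was the only tested claudin with both knockdown-labelled libraries below both controls (adjusted p = 0.589). CLDN5, the claudin of endothelium, and CLDN6, of embryonic epithelium, had log2 fold changes of 0.45 and 0.31 on at most 20 counts in a library. The untested claudins CLDN2, CLDN10, CLDN14, CLDN16, CLDN18 and CLDN23 had 0 to 16 counts in a library.

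The other transmembrane proteins were led by F11R, which encodes JAM-A, an immunoglobulin-type adhesion protein that recruits PAR complex proteins to young contacts. F11R had 79.0 and 79.3 CPM in the knockdown-labelled libraries, against 57.9 and 53.5 CPM in control. These averaged 79.1 ± 0.213 and 55.7 ± 3.05 CPM (SD, n = 2 each), and the log2 fold change was 0.51 ± 0.13 (SE, 95% interval 0.22 to 0.79, adjusted p = 0.0924). Another annotated gene shares 36.6% of its exonic bases, which makes its counts uncertain. DESeq2 put F11R past the threshold (adjusted p = 0.0346). JAM2, its relative of endothelial and Sertoli cell contacts, stood the other way on few counts, at 1.23 and 1.51 CPM in the knockdown-labelled libraries and 2.79 and 1.98 CPM in control (-0.79 ± 0.35, adjusted p = 0.272). Occludin (OCLN) had 17.6 and 15.1 CPM in knockdown-labelled libraries, against 12.9 and 16.6 CPM in control, with overlapping groups (0.15 ± 0.18). MARVELD2, the tricellular junction protein, had 12.9 and 11.3 CPM in knockdown-labelled libraries, against 10.1 and 10.8 CPM in control (0.21 ± 0.17, adjusted p = 0.577). CXADR, the coxsackievirus and adenovirus receptor, had 20.2 and 20.0 CPM in knockdown-labelled libraries, against 18.5 and 20.0 CPM in control, close to equal (0.06, 95% interval -0.27 to 0.39). MARVELD3, with 5 to 11 counts in a library, was not tested.

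Among the scaffolds the least abundant were those furthest from 0, and for the most abundant, TJP1, 1 control library stood apart. TJP3, which encodes ZO-3, had 4.40 and 5.05 CPM in the knockdown-labelled libraries, against 2.54 and 2.44 CPM in control. The groups were well apart for its level, with a log2 fold change of 0.92 ± 0.25 (SE, 95% interval 0.37 to 1.48, adjusted p = 0.110). CGNL1, which encodes paracingulin, had 1.67 and 1.73 CPM in knockdown-labelled libraries, against 0.538 and 1.01 CPM in control (1.12 ± 0.44, adjusted p = 0.221), where its control level rests on 11 and 22 counts. Its relative CGN, cingulin, had 14.1 and 15.1 CPM in knockdown-labelled libraries, against 10.96 and 16.9 CPM in control, which enclosed both other libraries. TJP1, for ZO-1, had 58.8 and 59.0 CPM in the knockdown-labelled libraries, against 56.6 and 97.1 CPM in control. Control replicate 2 thus stood far above the other 3 libraries, which were close to each other. The log2 fold change was -0.38 ± 0.21 (adjusted p = 0.386), and 0.03 without that library. MAGI1 showed the same pattern, at 14.2 and 15.0 CPM in knockdown-labelled libraries, against 14.3 and 20.8 CPM in control. MPDZ, a scaffold with many PDZ domains also called MUPP1, had 38.1 and 40.4 CPM in knockdown-labelled libraries, against 30.8 and 42.3 CPM in control, with overlap (0.10 ± 0.17). MAGI3 had 10.0 and 13.1 CPM in knockdown-labelled libraries, against 10.5 and 11.6 CPM in control.

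Of the polarity proteins, CRB3 had the log2 fold change furthest from 0, on few counts that passed the filter only in the knockdown-labelled libraries. CRB3, the small Crumbs protein of mammalian epithelia, had 18 and 19 counts in the knockdown-labelled libraries, against 6 and 1 counts in control. This was 0.793 and 0.715 CPM in knockdown-labelled libraries, against 0.293 and 0.0461 CPM in control, a log2 fold change of 2.14 ± 0.73 (SE, 95% interval 0.50 to 3.77, adjusted p = 0.176). Leaving out control replicate 1 gave 3.88, and leaving out replicate 2 gave 1.32. Its promoter window held the most E-boxes among the 29 members matched, and any link of these to its fold change was not tested. PATJ, a PDZ scaffold of the same complex, had 15.1 and 13.6 CPM in knockdown-labelled libraries, against 8.90 and 12.4 CPM in control (0.43 ± 0.20, adjusted p = 0.289), or 0.21 with control replicate 1 left out and 0.66 with replicate 2 left out. PALS1, which links CRB3 to PATJ, had 32.1 and 30.1 CPM in knockdown-labelled libraries, against 27.5 and 31.0 CPM in control (0.09, 95% interval -0.23 to 0.41). The 4 members of the PAR complex had log2 fold changes from -0.16 to 0.09 and overlapping groups. PARD3 had 72.0 and 68.9 CPM in the knockdown-labelled libraries and 61.4 and 70.7 CPM in control. PRKCI, the atypical protein kinase C of the complex, had 23.6 and 27.3 CPM in knockdown-labelled libraries, against 24.7 and 28.3 CPM in control, and the adaptors PARD6A and PARD6B had log2 fold changes of 0.06 and -0.16. In the Scribble complex, SCRIB had 670 and 658 CPM in the knockdown-labelled libraries, against 589 and 509 CPM in control. Its groups did not overlap, but the difference was small (0.27 ± 0.12, 95% interval 0.01 to 0.54, adjusted p = 0.264), at 0.38 without control replicate 1 and 0.15 without control replicate 2. LLGL2, the epithelial relative of LLGL1, had 30.8 and 27.3 CPM in knockdown-labelled libraries, against 25.3 and 21.5 CPM in control (0.31 ± 0.16, adjusted p = 0.329). LLGL1 had 150 and 139 CPM in knockdown-labelled libraries, against 160 and 143 CPM in control, with overlap (-0.06 ± 0.12). DLG1, the remaining scaffold of the complex, had 62.0 and 68.1 CPM in knockdown-labelled libraries, against 52.3 and 84.6 CPM in control, so that the controls again lay on either side.

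**Figure D3:**
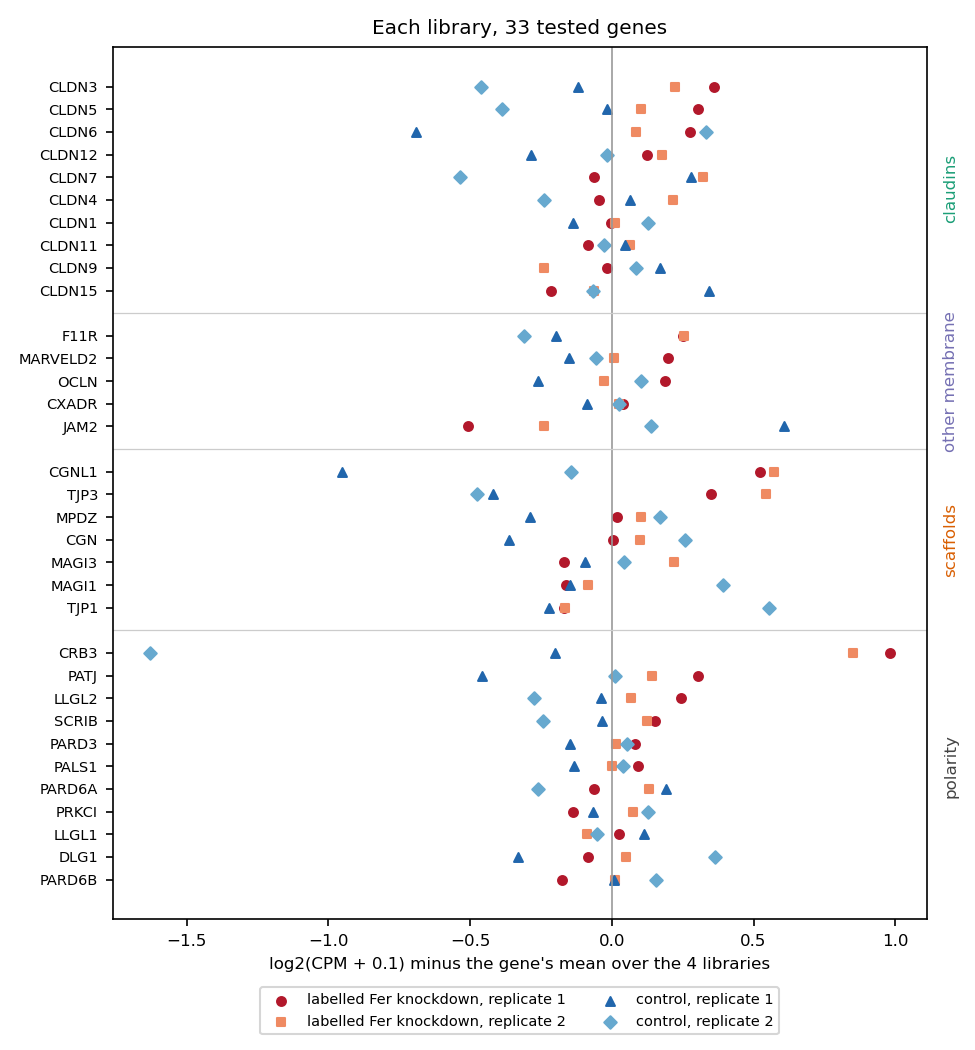
Each point is 1 library, as log2(CPM + 0.1) minus the gene's mean over the 4 libraries, for the 33 tested genes by role. The knockdown-labelled libraries sit close together for TJP1, DLG1 and MPDZ while the control libraries lie apart, and for F11R, TJP3 and CRB3 the groups separate. CRB3 passed the filter on low counts only through the knockdown-labelled libraries.

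Replicates lay further apart in control. The median absolute log2 difference between replicates was 0.15 over the 33 tested members in the knockdown-labelled libraries and 0.30 in control, beside 0.12 and 0.26 over all tested genes. For 20 members (60.6%) the difference between the control libraries was larger than the log2 fold change between the groups, close to the 56.2% of all tested genes. The control difference was widest for scaffolds, at a median of 0.54 with replicate 2 the higher. Members with a longer deposited gene length tended to be higher in control replicate 2 than in replicate 1. The rank correlation of deposited gene length with that difference was 0.63 over the 33 members and 0.34 over all 15336 tested genes, as a description across genes that share the same 2 libraries.

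Calls depended on which control library was used. Without control replicate 1 the test called 9 of 36 tested members, beside 29.5% of all genes tested in that fit, namely CLDN3, CRB3, DLG1, F11R, LLGL2, MAGI1, SCRIB, TJP1 and TJP3. Without control replicate 2 it called 8 of 35, beside 20.6% of all genes, namely CGNL1, CLDN12, CLDN15, DLG1, F11R, MPDZ, PATJ and TJP3. In these fits the lone control library is assumed to vary like the other group. F11R and TJP3 were among the members with the same sign in both fits. Log2 fold changes were 0.56 and 0.43 for F11R and 0.95 and 0.87 for TJP3. Members kept their sign less often than all tested genes, by the shares given below. For DLG1 the signs were opposite, at -0.38 without replicate 1 and 0.29 without replicate 2. Of other members named above, CLDN3 was at 0.76 and 0.39 without control replicate 1 and 2, CLDN12 at 0.17 and 0.42, CGNL1 at 0.74 and 1.63, JAM2 at -0.53 and -1.04 and LLGL2 at 0.43 and 0.17. TJP1 was at -0.73 without control replicate 1 and 0.03 without replicate 2. The sign differed between the 2 fits for 16 of 33 members (48.5%), against 35.2% of all tested genes, and for 5 of the 7 scaffolds. Without replicate 1 or replicate 2 of the knockdown-labelled libraries, 0 members passed. All genes tested in these fits were called at 0.713% and 0.352%. At an unadjusted p under 0.05 the fits had 1 of 36 and 2 of 37 tested members, beside 6.75% and 5.59% of all genes.

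**Figure D4:**
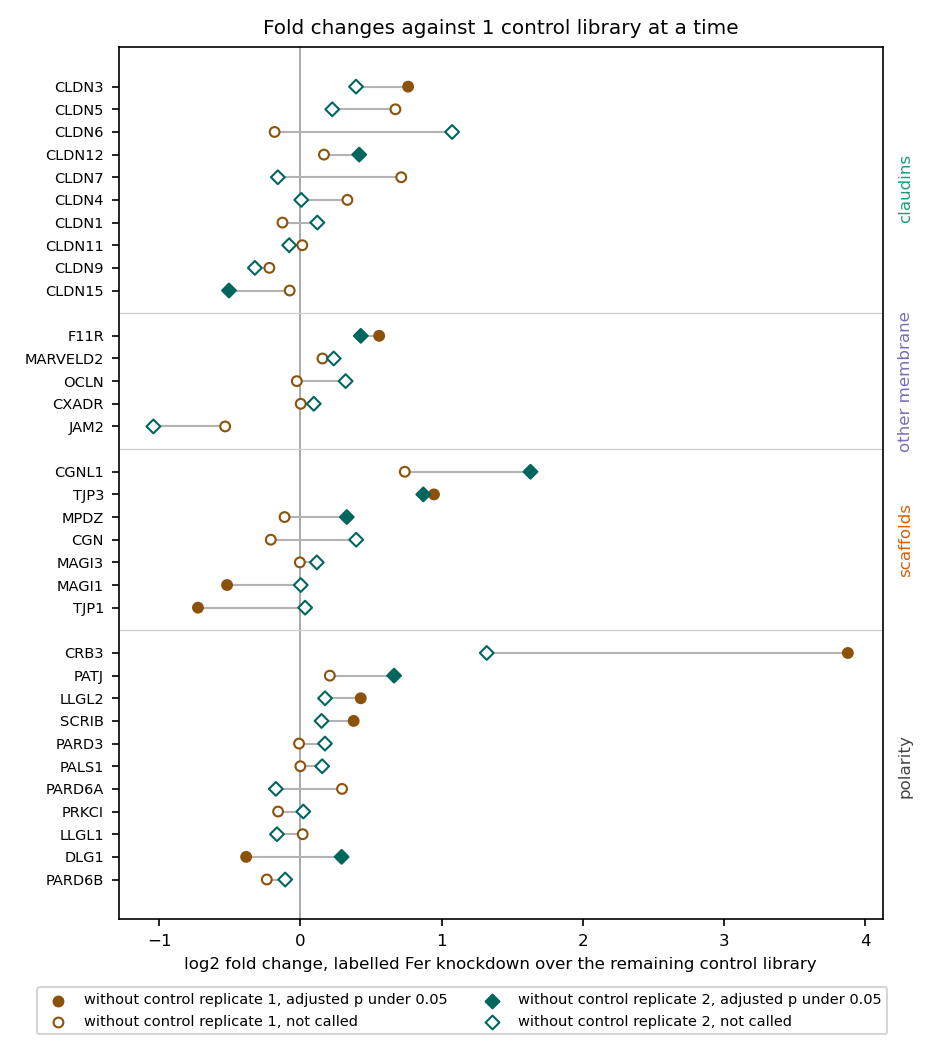
Log2 fold change of the 2 knockdown-labelled libraries over the remaining control library, without control replicate 1 (circles) or replicate 2 (diamonds), for the 33 tested genes. Filled symbols passed an adjusted p of 0.05. TJP1, MAGI1 and DLG1 move across or up to 0, and F11R and TJP3, among others, stay above it in both.

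A further 50 junction and polarity genes outside the list were read from the same fit. Of 38 tested, 0 passed over all genes, beside 0.646% of all genes. At an unadjusted p under 0.05, 2 were higher and 2 lower (5.26% each), against 8.95% and 8.77% of all genes. Both knockdown-labelled libraries lay above both controls for 7 (18.4%) and below both for 12 (31.6%), against 25.8% and 23.4% of all genes. Their median log2 fold change was 0.01. Of the 38, AMOT and ILDR2 passed the filter on low counts only through the knockdown-labelled libraries. AMOT is among the 7 above both controls, so that count and the median are partly set by the filter. ARHGAP17 encodes RICH1, a GTPase-activating protein for CDC42 that binds the Crumbs complex through angiomotin. It had 43.6 and 41.2 CPM in the knockdown-labelled libraries, against 56.7 and 82.4 CPM in control (-0.71 ± 0.18, adjusted p = 0.0901). DESeq2 called 1 of these 38, ARHGAP17, where it called 580 of the 15336 genes given to it, not all of which received an adjusted p. ARHGAP17 was at -0.96 without control replicate 1 and -0.44 without control replicate 2. CLDND1, a claudin-like membrane protein, had 28.0 and 31.9 CPM in knockdown-labelled libraries, against 41.8 and 39.4 CPM in control (-0.44 ± 0.14, adjusted p = 0.158, 16.2% exon overlap). ARHGEF18, an exchange factor for RhoA at tight junctions, had 53.9 and 49.0 CPM in knockdown-labelled libraries, against 42.8 and 35.0 CPM in control (0.40 ± 0.15, adjusted p = 0.201). Another gene shares 76.4% of the exonic bases of ARHGEF18.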

How the data were processed

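The deposited file holds unnormalised read counts of each gene in 4 libraries, beside an identifier, a symbol and a length, per the file headers. HISAT2, featureCounts and DESeq2 and the builds hg19 and mm10 are named in the submitters' processing notes, without versions or roles. Strandedness and the annotation used were not found in any label or header. Of 39635 entries, 1 without values was left out. The test was edgeR's two-sided quasi-likelihood test (version 4.0.16, R 4.3.3) after filterByExpr defaults and TMM scaling, with no replicate term and 2 residual degrees of freedom. Benjamini-Hochberg adjustment ran over every gene tested. Standard errors came from the fold change and test statistic. The steps were tested on simulated counts. TPM used the deposited lengths. Exon overlaps, on either strand, came from GENCODE release 29, which is of another build than hg19, and promoters from RefSeq.

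Members and gene lists were chosen with earlier results of these data known. Per-library values follow a rule taking the 3 smallest p and the 2 highest TPM of each role, and the 3 smallest p among other junction genes. Members shown beyond it, and ZEB1, SNAI1, SNAI2, the other markers and the promoters shown, were chosen after values were seen. Alternatives were DESeq2 1.42.0, limma-voom (limma 3.58.1), other scalings and filters, a replicate block, mitochondrial genes left out, each library left out, and, chosen after seeing the data, a length trend removed (lowess, span 0.3). Precision is limited by 2 libraries per group.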

Additional observations from a re-analysis of the deposited data

How the results depend on the processing

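Depth limits CRB3, CLDN5, CLDN6, CGNL1 and JAM2, which rest on at most 57 counts in a library. The replicate numbers are shared by the groups, but the labels do not say what they pair, and the replicate differences of the groups correlated at 0.04 across genes. With the replicate block 990 genes and 2 members passed (F11R, adjusted p = 0.0291, and TJP3, 0.0371), as did 1 other junction gene, ARHGAP17.

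The edgeR test called 99 genes. DESeq2 called 580, limma-voom 178, upper-quartile factors 192, library totals alone 443, no filter on low counts 993 and the removal of a length trend 687, and leaving out a library gave 56 to 4734. Members called were 0, but 1 with DESeq2 and 1 with the length trend removed (F11R, adjusted p = 0.0346 and 0.0367). They were 2 with library totals alone and 2 with no filter (F11R and TJP3 in each), and 0 to 9 with a library left out. Other junction genes called were 1 (ARHGAP17) with DESeq2, 1 with no filter and 1 with the length trend removed, and 0 to 13 with a library left out.

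With library totals alone, which moved the median of all genes to 0.18, the medians were 0.26 for all members, 0.37 for claudins, 0.31 for other transmembrane proteins and 0.25 for polarity proteins. A filter of 5 CPM in 2 libraries put the claudin median at -0.011. Leaving out a library gave medians of 0.00071 to 0.15 for all members, 0.013 to 0.13 for claudins, -0.012 to 0.24 for other transmembrane proteins, -0.11 to 0.33 for scaffolds and 0.016 to 0.15 for polarity proteins.

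Signs turned for several genes. CLDN1 was at -0.0040 in DESeq2 and with its size factors, -0.011 with the 5 CPM filter, -0.0039 without mitochondrial genes and -0.010 with the length trend removed. With a library left out it ranged from -0.13 to 0.12, with -0.0038 without replicate 2 of the knockdown-labelled libraries. With library totals alone CLDN11 was at 0.14 and LLGL1 at 0.10. With a library left out CLDN11 ranged from -0.096 to 0.052, LLGL1 from -0.17 to 0.016, MPDZ from -0.11 to 0.33, TJP1 from -0.73 to 0.033 and FER from -0.16 to 0.19. CLDN11 turned at 0.052 without replicate 1 of the knockdown-labelled libraries and 0.013 without control replicate 1, and FER at -0.078 without replicate 2 of those libraries. LLGL1 (0.016), MPDZ (-0.11) and FER (-0.16) turned without control replicate 1, and TJP1 (0.033) without control replicate 2. The cause was not tested.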
